A study of Mus musculus with 21 samples.

Results

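The calcineurin-NFAT axis was followed through 7 genes of the 13202 listed in an RNA sequencing table of mouse T cell cultures. They were chosen by symbol: the NFAT transcription factor genes Nfatc1, Nfatc2, Nfatc3 and Nfat5, the calcineurin catalytic subunit genes Ppp3ca and Ppp3cb, and the calcineurin feedback gene Rcan1. Each had a row in the table, and 7 of 7 passed the filter on low values. The rule uses no measured value, though the set was proposed with earlier results of these data known.

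Calcineurin is a phosphatase switched on by calcium and calmodulin, made of a catalytic A subunit (encoded by Ppp3ca, Ppp3cb or Ppp3cc) and a regulatory B subunit (Ppp3r1 in T cells). After T cell receptor (TCR) signalling empties the calcium stores and opens the Orai channels, calcineurin dephosphorylates the cytoplasmic NFAT proteins, which enter the nucleus and switch on cytokine genes together with AP-1. NFAT that acts without AP-1 is known for driving genes of T cell tolerance and exhaustion. Nfat5 encodes a relative that lacks the calcineurin docking region and is best known for the response to osmotic stress, and Rcan1 encodes a calcineurin inhibitor whose short form is itself an NFAT target, which closes a feedback loop.

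The series compared brief with repeated TCR stimulation in 3 experiments, with 3 libraries in each of 7 groups. CD8 T cells, by the labels, were isolated untouched from mouse spleens and inguinal lymph nodes, activated for 48 h and harvested on day 8 in medium with 10 ng/mL IL-2. The polyclonal acute and polyclonal chronic groups were C57BL/6 cells activated with plate-bound anti-CD3 and anti-CD28, and the chronic group met plate-bound anti-CD3 again every 48 h. The OT-I acute and OT-I chronic groups carried the OT-I transgenic TCR, which recognises the ovalbumin peptide SIINFEKL, and were activated with that peptide. Both OT-I groups were then co-cultured with B16-F10, a mouse melanoma line that had been given interferon-γ first, renewed every 48 h, and the chronic group alone received more peptide. The vehicle acute, vehicle chronic and NAC chronic groups were C57BL/6 cells, for which the labels give the same culture protocol as for the polyclonal ones, and the vehicle is not named. NAC chronic cells received 10 mM N-acetylcysteine (NAC), a thiol antioxidant, from 48 h onwards. The labels do not say whether libraries of a group came from separate animals or cultures, so the p-values rest on a spread between libraries that may be technical.

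The promoters of Rcan1 and Nfatc2 are shown first because Rcan1 is the feedback target whose RNA was not called changed in any comparison, while Nfatc2 has an alternative start within the same gene. Windows from RefSeq (build GRCm38.p6, 250 bases before to 50 after a start) were found for 5 of the 7 genes, 8 windows in all. They were searched on both strands for GGAAA, the core bound by NFAT, and TGANTCA, the AP-1 site. No match of one overlapped a match of the other. Capitals mark matches, and TTTCC is GGAAA read on the opposite strand. Rcan1 has an upstream start and an internal start, and RPKM per gene does not tell their transcripts apart. The 250 bases before each start, read 5′ to 3′ on the minus strand, were as follows.
Rcan1 internal start, chr16:92400079-92400328: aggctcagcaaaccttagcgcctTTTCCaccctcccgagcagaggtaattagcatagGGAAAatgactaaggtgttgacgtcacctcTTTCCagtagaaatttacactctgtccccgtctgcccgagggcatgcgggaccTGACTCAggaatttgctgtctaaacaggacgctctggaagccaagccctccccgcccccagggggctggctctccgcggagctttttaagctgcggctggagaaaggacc
Rcan1 upstream start, chr16:92466170-92466419: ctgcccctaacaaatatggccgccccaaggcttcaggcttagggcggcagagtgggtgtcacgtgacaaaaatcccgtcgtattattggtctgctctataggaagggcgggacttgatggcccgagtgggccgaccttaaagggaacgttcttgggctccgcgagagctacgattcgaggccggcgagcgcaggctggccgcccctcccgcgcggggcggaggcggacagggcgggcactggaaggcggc
Nfatc2 upstream start, chr2:168601658-168601907: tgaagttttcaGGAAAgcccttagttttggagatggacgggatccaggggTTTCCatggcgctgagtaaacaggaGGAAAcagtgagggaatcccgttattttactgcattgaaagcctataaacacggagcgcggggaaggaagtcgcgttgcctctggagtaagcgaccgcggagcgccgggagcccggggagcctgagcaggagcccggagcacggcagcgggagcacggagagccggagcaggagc
The Rcan1 internal window held 3 GGAAA matches and 1 TGANTCA match, and the Rcan1 upstream window held 0 of each. Of 32851 promoter windows of 27025 genes, 0.837% held at least 3 GGAAA and at least 1 TGANTCA, 9.42% held at least 3 GGAAA and 7.81% held TGANTCA. These thresholds equal the counts of the Rcan1 internal window itself, so the shares are no test of that window. The Nfatc2 upstream window held 3 GGAAA and 0 TGANTCA, and its second window (chr2:168590316-168590615) held 1 GGAAA. The Ppp3cb window held 4 GGAAA, the Nfat5 window 2, and the pair of Nfatc3 windows 1 and 0, with 0 TGANTCA in these 4 windows. A match is a description of the letters only, and 61.3% of all windows held at least 1 GGAAA.

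Depth, counted as reads recovered from the RPKM values, was 5347355 to 15147347 reads in the polyclonal libraries, 13121180 to 25218890 in the OT-I libraries and 14421378 to 17539278 in the vehicle and NAC libraries. Some libraries went against the CD8 T cell label. In the libraries labelled polyclonal chronic, Cd8a was at 8.48 ± 0.165 RPKM (SD, n = 3) against 101 ± 0.556 in polyclonal acute, while Cd4 was at 312 ± 8.04 against 67.5 ± 2.99. Summed B cell markers (7 of 7 listed) ran from 209.8 to 230.3 RPKM in polyclonal chronic libraries against 3.49 to 15.5 in polyclonal acute ones, with 7 of 7 markers higher. Summed CD4 T cell markers ran from 377.5 to 403.04 RPKM against 99.5 to 108 (3 of 4 higher). In OT-I libraries the 6 melanocyte markers summed to 6892 to 7177 RPKM in the acute group and 3703 to 3779 in the chronic group, so OT-I values are those of T cells and melanoma cells together. The same 6 markers summed to 22.7 to 58.1 RPKM in polyclonal acute and 20.6 to 39.04 in polyclonal chronic libraries, for which the labels name no melanoma cells. Tyrp1 was at 9.67 ± 5.17 and 7.16 ± 2.57 RPKM there. Of the B cell markers 5 of 7 were higher in OT-I chronic, at 39.7 to 42.6 RPKM summed against 5.84 to 13.03. In OT-I chronic 2 of 2 listed NK cell markers were also higher (10.7 to 12.6 against 1.64 to 3.32). There 1 of 3 myeloid markers was higher (16.1 to 17.8 summed against 2.71 to 5.75) and 4 of 5 CD8 T cell markers were lower (719.8 to 743.8 against 873.3 to 1099). These 5 were Cd8a, Cd8b1, Cd3e, Cd3d and Cd3g, and the CD3 genes among them are shared with CD4 T cells. In the vehicle libraries, Cd8a was at 87.1 ± 1.76 RPKM in acute and 145 ± 1.37 in chronic and Cd8b1 at 179 ± 1.16 and 88.8 ± 0.253 (3 higher and 1 lower of 5 CD8 T cell markers). Their B cell markers summed to at most 6.31 RPKM, Ms4a1 and Pax5 were at 0 in every vehicle chronic library, and Tyrp1 and Tyr were at 0 in both vehicle groups. Their CD4 T cell markers summed to 33.8 to 34.7 RPKM in acute and 19.4 to 22.3 in chronic libraries (1 higher and 2 lower of 4), and the 3 listed myeloid markers to 2.51 to 3.76 and 8.94 to 9.64 (2 higher). Low genes lay above those of the group's other libraries in polyclonal acute library 2, polyclonal chronic library 2 and OT-I acute library 3. The part of these features in the results below was not tested. In bulk RNA, fewer cells of a type and less RNA per cell cannot be told apart.

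Every member had reads in every library. Ordered by level, where RPKM is per length, Nfatc3 had the highest group means of the NFAT genes in every group (30.4 to 98.8 RPKM), and Rcan1 the lowest of the 7 genes in every group (3.48 to 9.35 RPKM). Nfat5 had the largest spread within a group, a coefficient of variation of 30.8% in polyclonal chronic, and Rcan1 rested on the fewest reads, 51 to 556 a library. The plot of RPKM by library shows all values.

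**Figure D1:**
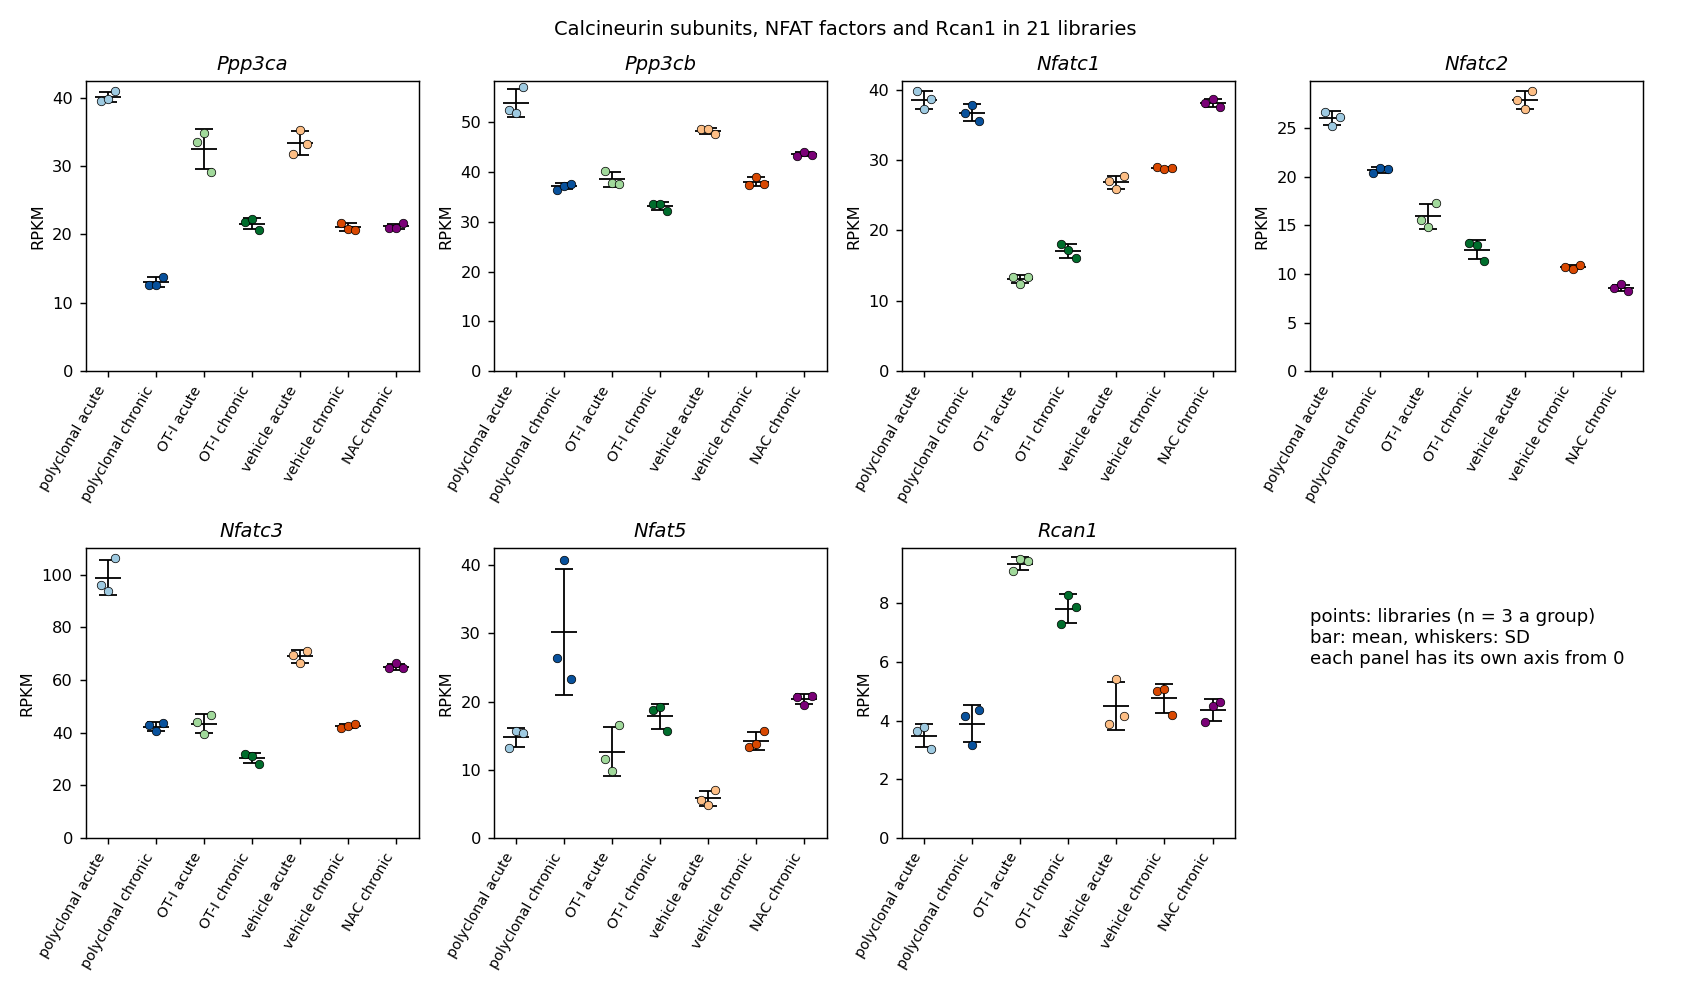
RPKM of the 7 genes in each of the 21 libraries, 1 panel a gene with its own axis from 0, points for libraries, bars for group means and whiskers for SD (n = 3 a group). Ppp3ca, Nfatc2 and Nfatc3 were lower in the chronic than in the acute libraries of each experiment, without overlap, and Rcan1 was highest in both OT-I groups.

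Chronic stimulation was compared with acute stimulation within each experiment. Differences are log2 changes of RPKM + 1 from 1 limma fit of all libraries, and a gene counts as changed at a Benjamini-Hochberg adjusted p under 0.05 over 12630 genes. In the vehicle experiment 4 of 7 members fell and 1 rose, where 58.9% of all genes were called (24.5% higher, 34.4% lower). In the polyclonal experiment the counts were also 4 lower and 1 higher, where 64.1% of all genes were called (28.6% higher, 35.5% lower). In the OT-I experiment 4 fell and 2 rose, where 58.6% were called (22.4% higher, 36.2% lower). With backgrounds this high, the members' counts of 5, 5 and 6 of 7 are not in themselves a result about the members, and the sizes below carry the description. The members' median change was -0.34 in the vehicle, -0.32 in the polyclonal and -0.23 in the OT-I experiment, against -0.03, -0.08 and -0.12 over all genes. Ppp3ca, Ppp3cb, Nfatc2 and Nfatc3 fell and Nfat5 rose in each of the 3 experiments. Rcan1 was called in none of the 8 comparisons, counting those of NAC and between experiments.

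**Figure D2:**
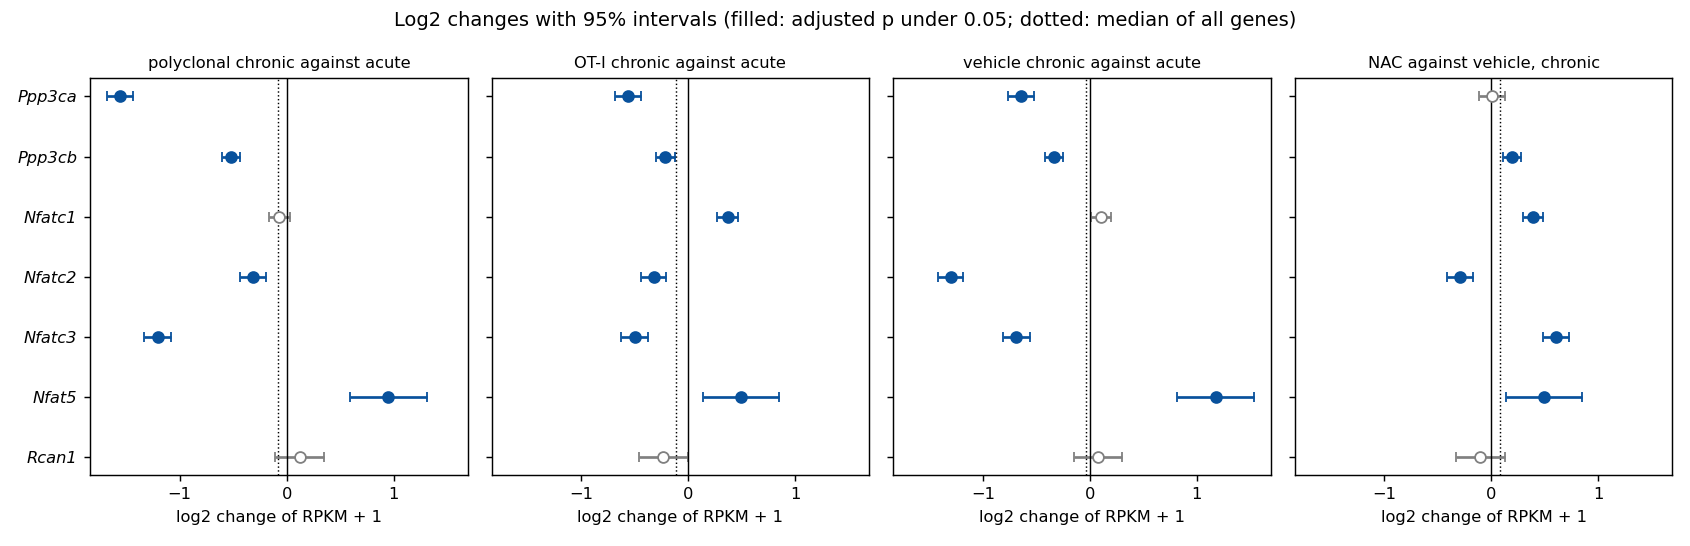
Log2 change of RPKM + 1 of the 7 genes with 95% intervals in 4 comparisons, filled points for adjusted p under 0.05, with the median change of all genes as a dotted line. Ppp3ca, Ppp3cb, Nfatc2 and Nfatc3 lie left of 0 and Nfat5 right of 0 in the 3 chronic against acute panels, and in the NAC panel Nfatc3 lies right of 0 and Nfatc2 left of it.

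Ppp3ca encodes the calcineurin A alpha catalytic subunit. Its RPKM was 31.7, 35.2 and 33.3 in the vehicle acute libraries and 21.7, 20.8 and 20.7 in the vehicle chronic ones. In OT-I cells it was 33.6, 34.8 and 29.1 in acute and 21.8, 22.3 and 20.7 in chronic libraries. In polyclonal cells it was 39.6, 39.8 and 41.01 in acute and 12.6, 12.6 and 13.8 in chronic libraries. Acute and chronic libraries did not overlap in any of the 3 experiments. The log2 change was -0.64 (SE 0.06, adjusted p = 6.54e-09) in the vehicle, -0.57 (SE 0.06, adjusted p = 6.39e-08) in the OT-I and -1.56 (SE 0.06, adjusted p = 3.41e-15) in the polyclonal experiment. The polyclonal fall was the largest of the 3, and it exceeded the OT-I fall by 0.99 (adjusted p = 2.54e-09) and the vehicle fall by 0.92 (adjusted p = 9.07e-09). OT-I and vehicle falls differed by 0.07 (95% interval -0.097 to 0.24, adjusted p = 0.453), which was not called. The lowest group mean was that of polyclonal chronic, the group whose Cd8a was low. Above it came vehicle chronic, NAC chronic and OT-I chronic, whose neighbours in that order overlapped, then OT-I acute and vehicle acute, which overlapped too, and polyclonal acute at the top.

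Ppp3cb encodes the calcineurin A beta catalytic subunit, known as the major one of lymphocytes, though Ppp3cc had the higher RPKM in every group here. Ppp3cb fell by less than Ppp3ca in each experiment by point estimate. RPKM in vehicle acute libraries was 48.5, 48.7 and 47.6, against 37.4, 39.04 and 37.5 in vehicle chronic ones, a log2 change of -0.34 (SE 0.04, adjusted p = 4.83e-07). In polyclonal libraries it was 52.4, 51.9 and 57.02 in acute and 36.4, 37.2 and 37.6 in chronic, a change of -0.52 (SE 0.04, adjusted p = 5.98e-10). In OT-I libraries it was 40.2, 37.8 and 37.6 in acute and 33.6, 33.5 and 32.2 in chronic, a change of -0.21 (SE 0.04, adjusted p = 0.000167). The groups did not overlap in any experiment. The polyclonal fall exceeded the OT-I fall by 0.31 (adjusted p = 0.000133) and the vehicle fall by 0.19 (adjusted p = 0.0108). With library medians set equal the latter difference was 0.16 and no longer called. OT-I and vehicle falls differed by 0.12 (95% interval 0.003 to 0.24, adjusted p = 0.0732), not called, and by 0.19 with medians set equal, which was called. In the order of levels OT-I chronic was lowest and polyclonal acute highest, and polyclonal chronic, vehicle chronic and OT-I acute overlapped as neighbours.

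Ppp3cc and Ppp3r1 are the other calcineurin subunit genes of the pathway list. Ppp3cc, the catalytic subunit gene with the highest RPKM here, also fell, by 0.27 in the polyclonal, 0.46 in the OT-I and 0.17 in the vehicle experiment on the log2 scale. Its share of the summed RPKM of the 3 catalytic genes went from 58.01 ± 0.726% (SD, n = 3) in vehicle acute to 62.9 ± 0.653% in vehicle chronic. The share of Ppp3ca went from 17.2 ± 0.822% to 13.2 ± 0.173% in the vehicle experiment. In polyclonal libraries that share went from 18.4 ± 0.305% to 8.51 ± 0.518%, and in OT-I libraries from 19.7 ± 0.884% to 17.6 ± 0.534%. Ppp3r1, which encodes the regulatory B subunit, rose by 0.77 in the polyclonal and 0.29 in the vehicle experiment and fell by 0.103 in the OT-I one (adjusted p = 2.12e-12, 5.56e-06 and 0.04404). Ppp3r1 RPKM per summed catalytic RPKM went from 0.266 to 0.3999 in the vehicle libraries and from 0.228 to 0.562 in the polyclonal ones, as means of the libraries' ratios. It went from 0.337 to 0.422 in the OT-I libraries and was 0.261 in NAC chronic ones.

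Nfatc2 encodes the NFAT protein that resting T cells hold ready in the cytoplasm. Its RPKM was 27.9, 26.9 and 28.8 in vehicle acute libraries and 10.7, 10.5 and 10.9 in vehicle chronic ones. It was 26.6, 25.2 and 26.2 in polyclonal acute and 20.4, 20.9 and 20.8 in polyclonal chronic libraries. In OT-I libraries it was 15.6, 14.9 and 17.3 in acute and 13.2, 12.98 and 11.4 in chronic. The chronic libraries were below the acute ones in every experiment, with no overlap. The log2 change was -1.301 (SE 0.06, adjusted p = 6.66e-14) in the vehicle experiment, the largest change of Nfatc2 among the 3. It was -0.32 (SE 0.06, adjusted p = 6.31e-05) in the polyclonal and -0.32 (SE 0.06, adjusted p = 6.74e-05) in the OT-I experiment. The vehicle fall exceeded the polyclonal one by 0.98 on the log2 scale (adjusted p = 2.7e-09) and the OT-I one by 0.98 (adjusted p = 2.58e-09). Polyclonal and OT-I changes differed by -0.01 (95% interval -0.18 to 0.16, adjusted p = 0.948), not called. The 7 groups formed an order in which no neighbours overlapped, from NAC chronic, vehicle chronic, OT-I chronic, OT-I acute, polyclonal chronic and polyclonal acute up to vehicle acute.

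Nfatc3, the NFAT gene with the highest RPKM here, fell most in the polyclonal experiment. It was at 96.2, 93.9 and 106 RPKM in polyclonal acute libraries and 42.8, 40.5 and 43.5 in polyclonal chronic ones. In vehicle libraries it was at 69.4, 66.5 and 71.2 in acute and 41.7, 42.4 and 43.4 in chronic. In OT-I libraries it was at 44.1, 39.6 and 46.7 in acute and 32.04, 30.96 and 28.2 in chronic. Acute and chronic libraries did not overlap. The log2 changes were -1.205 (SE 0.06, adjusted p = 3.47e-13), -0.69 (SE 0.06, adjusted p = 3.48e-09) and -0.501 (SE 0.06, adjusted p = 4.98e-07) in the same order. The polyclonal fall exceeded the OT-I one by 0.704 (adjusted p = 5.3e-07) and the vehicle one by 0.52 (adjusted p = 2.8e-05). OT-I and vehicle falls differed by 0.18 (95% interval 0.01 to 0.36, adjusted p = 0.0658), not called, and by 0.25 with medians set equal, which was called. In these libraries polyclonal chronic, vehicle chronic and OT-I acute overlapped as neighbours in level, with OT-I chronic below and NAC chronic, vehicle acute and polyclonal acute above, in that order.

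Nfatc1, whose short form is induced by NFAT itself after activation, did not follow the other cytoplasmic factors. Its RPKM was 13.4, 12.4 and 13.3 in OT-I acute and 18.1, 17.2 and 16.1 in OT-I chronic libraries, with no overlap and a log2 change of 0.37 (SE 0.05, adjusted p = 1.21e-06). In the polyclonal experiment it was 39.8, 37.2 and 38.7 in acute and 36.8, 37.9 and 35.5 in chronic libraries, which overlapped, a change of -0.07 (95% interval -0.17 to 0.03, adjusted p = 0.203). In the vehicle experiment it was 27.01, 25.8 and 27.7 in acute and 29.1, 28.8 and 28.9 in chronic libraries. These groups did not overlap, yet the change of 0.103 (95% interval 0.01 to 0.2003, adjusted p = 0.06296) was not called. The vehicle change was called, at 0.103 to 0.13, with library medians set equal (adjusted p = 0.0372), with the compared groups alone (adjusted p = 0.0244), with limma voom on recovered reads (adjusted p = 0.0395) and without vehicle acute library 3 (adjusted p = 0.0484). The OT-I rise exceeded the polyclonal change by 0.44 (adjusted p = 1.09e-05) and the vehicle change by 0.26 (adjusted p = 0.001804). The vehicle change exceeded the polyclonal one by 0.17 (adjusted p = 0.0333), a call lost at 0.15 with medians set equal and when any of 8 libraries was left out. Nfatc1 was lowest in the OT-I groups, the ones with melanoma RNA, and highest in polyclonal acute, NAC chronic and polyclonal chronic, which overlapped as neighbours.

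The make-up of cytoplasmic NFAT RNA differed between acute and chronic libraries, described here as shares of the summed RPKM of Nfatc1, Nfatc2 and Nfatc3. The sum was 124 ± 4.26 RPKM in vehicle acute and 82.1 ± 0.8795 in vehicle chronic libraries. It was 163 ± 7.48 and 99.7 ± 0.342 in the polyclonal and 72.4 ± 5.304 and 60.02 ± 3.95 in the OT-I libraries. Nfatc1 made up 21.7 ± 0.0281% of it in vehicle acute and 35.2 ± 0.458% in vehicle chronic libraries. Its share went from 23.6 ± 0.949% to 36.8 ± 1.29% in the polyclonal and from 18.1 ± 0.707% to 28.5 ± 0.3797% in the OT-I experiment. In each experiment the chronic share of Nfatc1 was above the acute one, whether or not Nfatc1 itself was called. The Nfatc2 share did not move one way: it went from 22.5 ± 0.06002% to 13.05 ± 0.154% in vehicle, from 15.9 ± 0.571% to 20.7 ± 0.335% in polyclonal and from 21.97 ± 0.554% to 20.8 ± 0.391% in OT-I libraries. These shares are ratios of the values tested above and were not tested again.

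**Figure D3:**
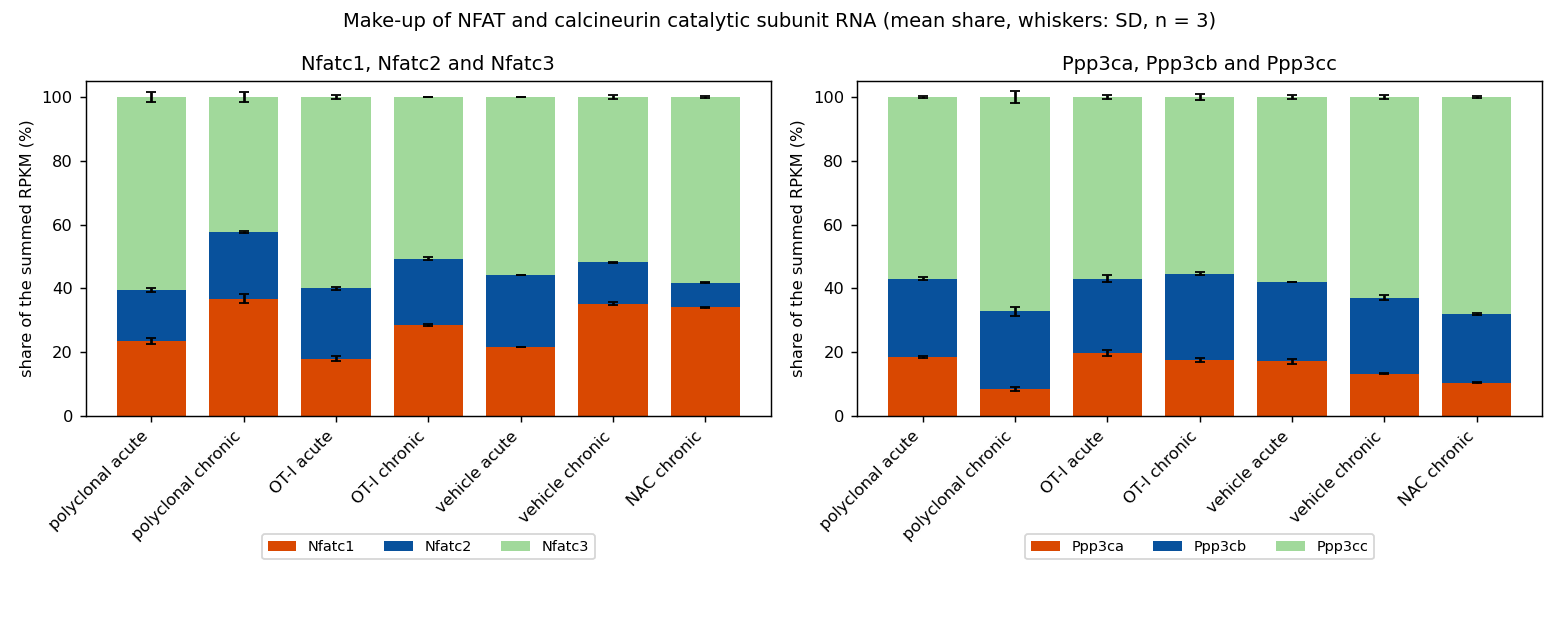
Mean share (percent) of the summed RPKM of Nfatc1, Nfatc2 and Nfatc3 (left) and of Ppp3ca, Ppp3cb and Ppp3cc (right) in each group, stacked bars with SD whiskers (n = 3). The Nfatc1 share is higher and the Nfatc3 share lower in polyclonal, OT-I and vehicle chronic than in the acute group of the same experiment, the Nfatc3 share of NAC chronic is above that of vehicle acute, and the Ppp3ca share is lowest in polyclonal chronic.

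Nfat5, the calcineurin-independent relative, rose in each experiment. It was at 5.52, 4.88 and 6.99 RPKM in vehicle acute and 13.3, 13.7 and 15.7 in vehicle chronic libraries, a log2 change of 1.17 (SE 0.17, adjusted p = 5.32e-06). In polyclonal libraries it was at 13.2, 15.6 and 15.4 in acute and 26.4, 40.8 and 23.4 in chronic, a change of 0.95 (SE 0.17, adjusted p = 5.88e-05). Vehicle and polyclonal groups did not overlap. In OT-I libraries it was at 11.5, 9.82 and 16.6 in acute and 18.7, 19.1 and 15.7 in chronic, a change of 0.49 (SE 0.17, adjusted p = 0.0186). The OT-I groups overlapped, since acute library 3 was above chronic library 3. The OT-I call was lost without acute library 1 (adjusted p = 0.0611), acute library 2 (adjusted p = 0.115), chronic library 1 (adjusted p = 0.0571) or chronic library 2 (adjusted p = 0.0645). The vehicle rise exceeded the OT-I one by 0.68 on the log2 scale (adjusted p = 0.0201), a call lost without OT-I acute library 3 (-0.48), OT-I chronic library 3 (-0.599), vehicle acute library 2 (-0.58) or vehicle chronic library 3 (-0.61). OT-I and polyclonal rises differed by -0.46 (95% interval -0.96 to 0.04, adjusted p = 0.115), not called, but called without polyclonal chronic library 3 (-0.62) or OT-I acute library 2 (-0.61). It shrank to -0.23 (adjusted p = 0.363) without polyclonal chronic library 2 and to -0.07 (adjusted p = 0.728) without the 3 libraries with raised low genes. Polyclonal and vehicle rises differed by 0.22 (95% interval -0.28 to 0.73, adjusted p = 0.468), not called. Without polyclonal chronic library 2 that difference was 0.45 (adjusted p = 0.0695), and without the 3 libraries with raised low genes it was called, at 0.41 (adjusted p = 0.0329). From vehicle acute, the lowest, the levels ran through OT-I acute, vehicle chronic and polyclonal acute, which overlapped as neighbours, to OT-I chronic, NAC chronic and polyclonal chronic.

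The 2 libraries farthest above their groups for Nfat5 were also above them for the longest genes. The gene model behind its RPKM has 13443 bases, and 793 genes of at least 6369 bases were the longest among genes at a mean RPKM of 5 or more. Polyclonal chronic library 2, the one with the highest Nfat5, lay 0.69 above its group's other libraries for Nfat5 (log2 of RPKM + 1), and its longest genes lay 0.12 above at the median. In OT-I acute library 3 these differences were 0.60 and 0.24. The part of transcript length in the spread of Nfat5 within groups, or in its changes between groups, was not tested. From acute to chronic, the longest genes had a median log2 change of -0.02 in the vehicle, -0.17 in the polyclonal and -0.02 in the OT-I experiment. The medians over all genes were -0.03, -0.08 and -0.12. For NAC chronic cells the longest genes' median was 0.22 against vehicle chronic and 0.19 against vehicle acute cells, where all genes had 0.08 and 0.04. Of the 793 genes, 3.28%, 4.41% and 6.94% had a change at or above that of Nfat5 in the vehicle, polyclonal and OT-I experiments. Without polyclonal chronic library 2 the polyclonal rise was 0.72 (adjusted p = 0.0003996).

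**Figure D4:**
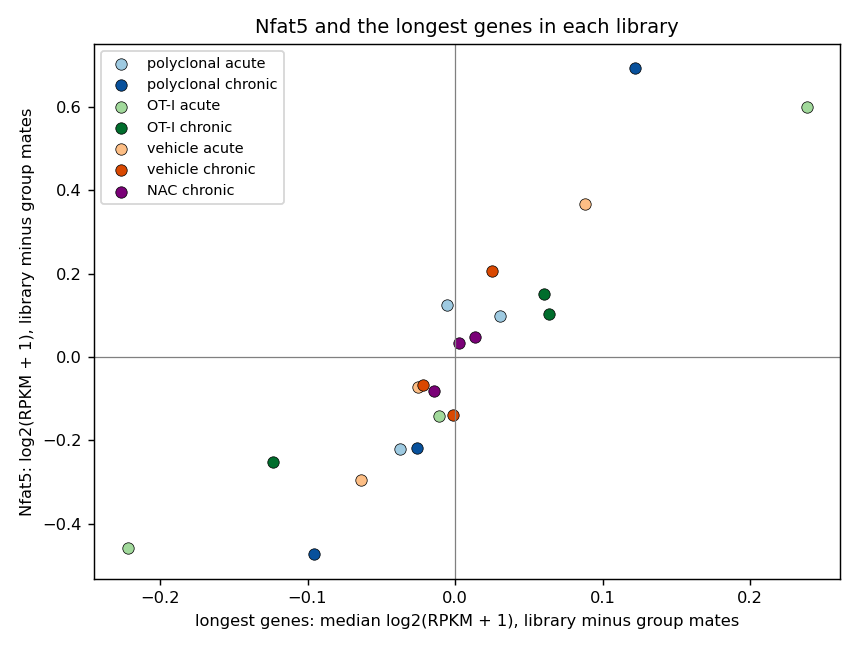
For each of the 21 libraries, log2 of Nfat5 RPKM + 1 minus the mean of the group's other libraries (y axis) against the median of the same difference over the 793 longest genes (x axis), coloured by group. Polyclonal chronic library 2 (0.69 and 0.12) and OT-I acute library 3 (0.60 and 0.24) are at the upper right, and the libraries lowest for the longest genes are low for Nfat5, while polyclonal acute library 2 is just below 0 for the longest genes and above 0 for Nfat5.

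Rcan1, the feedback inhibitor, was not called changed by chronic stimulation in any experiment. Its RPKM was 3.89, 5.43 and 4.15 in vehicle acute and 5.002, 5.07 and 4.195 in vehicle chronic libraries, which overlapped, a log2 change of 0.07 (95% interval -0.15 to 0.2999, adjusted p = 0.604). In polyclonal libraries it was 3.64, 3.77 and 3.04 in acute and 4.14, 3.16 and 4.35 in chronic, which overlapped too, a change of 0.12 (95% interval -0.11 to 0.35, adjusted p = 0.344). Without the 3 libraries with raised low genes, left out after the data were seen, the polyclonal change was 0.28 (adjusted p = 0.0396). In OT-I libraries Rcan1 was at 9.095, 9.49 and 9.45 in acute and 7.29, 8.28 and 7.87 in chronic. The OT-I groups did not overlap, and the change was -0.23 (95% interval -0.46 to -0.01, adjusted p = 0.0723). With the compared groups alone its adjusted p was 0.0133, and with limma voom on recovered reads it was 0.005804. The OT-I groups had the highest Rcan1 of all, and the other 5 groups overlapped as neighbours in level. Melanocyte markers moved the same way in the OT-I libraries (5 of 6 lower in chronic), and their part in the Rcan1 values was not tested. The OT-I change was below the polyclonal one by 0.35 on the log2 scale (adjusted p = 0.0572) and below the vehicle one by 0.31 (adjusted p = 0.0931), neither of them called. The first was called without polyclonal acute library 2 (0.398) or polyclonal chronic library 2 (0.46), and without the 3 libraries with raised low genes (0.502). The second was called with limma voom (0.36) or without vehicle acute library 2 (0.42). Rcan3, a relative with the same calcineurin-binding motif, rose by 0.93 in the polyclonal and 0.14 in the vehicle experiment and fell by 0.46 in the OT-I one.

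The chronic effect was also compared between experiments over the 7 genes. OT-I effects lay above polyclonal ones for 4 of 7 members and below for 0, where 55.8% of all genes were called (26.6% higher, 29.2% lower). Vehicle effects lay above polyclonal ones for 4 of 7 and below for 1, where 52.4% were called (25.1% higher, 27.3% lower). OT-I effects lay above vehicle ones for 2 of 7 and below for 1, where 58.5% were called (27.4% higher, 31.1% lower). Ppp3ca, Ppp3cb and Nfatc3 were less reduced in OT-I and vehicle cells than in polyclonal cells. Each experiment enters more than one of these 3 differences, so they are not independent.

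NAC was compared with vehicle in chronic cells. Nfatc1, Nfatc3, Nfat5 and Ppp3cb rose and Nfatc2 fell, 5 of 7 members, where 61.1% of all genes were called (38.5% higher, 22.6% lower). Nfatc3 was at 41.7, 42.4 and 43.4 RPKM in vehicle chronic and 64.5, 66.4 and 64.5 in NAC chronic libraries, a log2 change of 0.604 (SE 0.06, adjusted p = 2.78e-08). Nfatc1 was at 29.1, 28.8 and 28.9 RPKM with vehicle against 38.2, 38.7 and 37.5 with NAC, a change of 0.39 (SE 0.05, adjusted p = 4.37e-07). Both were higher with NAC in every library. Nfatc2 was at 10.7, 10.5 and 10.9 RPKM with vehicle against 8.57, 8.91 and 8.24 with NAC, a change of -0.29 (SE 0.06, adjusted p = 0.000175). Nfat5 was at 13.3, 13.7 and 15.7 RPKM with vehicle against 20.7, 19.5 and 20.8 with NAC, a change of 0.49 (SE 0.17, adjusted p = 0.01799), lost without vehicle chronic library 1 (adjusted p = 0.0612) or 2 (adjusted p = 0.0506). Ppp3cb was at 37.4, 39.04 and 37.5 RPKM with vehicle against 43.2, 43.97 and 43.5 with NAC, a change of 0.19 (SE 0.04, adjusted p = 0.000417). These 3 genes also showed no overlap between vehicle chronic and NAC chronic libraries. Ppp3ca was at 21.7, 20.8 and 20.7 with vehicle against 21.02, 20.9 and 21.6 with NAC, a difference of 0.01 (95% interval -0.11 to 0.13, adjusted p = 0.954). Rcan1 was at 5.002, 5.07 and 4.195 against 3.93, 4.49 and 4.64, a difference of -0.103 (95% interval -0.33 to 0.12, adjusted p = 0.445). Both overlapped between the groups, and neither was called.

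The libraries' medians were 0.16 higher on the log2 scale with NAC than with vehicle in chronic cells. Relative to that shift, with library medians set equal, Nfatc3 was at 0.44, Nfatc1 at 0.23 and Nfatc2 at -0.45, and these 3 stayed called. Nfat5 was then at 0.33 (adjusted p = 0.0776) and Ppp3cb at 0.03 (adjusted p = 0.596), both no longer called. Ppp3ca turned to -0.15 (adjusted p = 0.0562). The longest genes had a median change of 0.22 with NAC, and 22.6% of them changed by as much as Nfat5 or more. NAC chronic libraries held more Cd4, at 47.9 ± 1.12 RPKM against 2.39 ± 0.236 in vehicle chronic, with 4 of 4 CD4 T cell markers (summed 74.9 to 76.8 RPKM), 2 of 3 myeloid markers (30.7 to 32.2) and 2 of 7 B cell markers (10.1 to 11.4) higher. Of the 5 CD8 T cell markers, which include the CD3 genes shared with CD4 T cells, 2 were higher and 0 lower with NAC. Their sum was 1832 to 1888 RPKM against 1556 to 1579 in vehicle chronic. Cd8a was at 138 ± 2.42 RPKM in NAC chronic against 145 ± 1.37 in vehicle chronic libraries. Cd8b1 was at 184 ± 2.75 against 88.8 ± 0.253, and Cd3e at 372 ± 29.4 against 227 ± 1.13. The part of these markers in the NAC values was not tested.

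Set against vehicle acute cells, NAC chronic cells had higher Nfatc1 and Nfat5 and lower Nfatc2, Ppp3ca and Ppp3cb, 5 of 7 members, where 66.3% of all genes were called (36.3% higher, 29.9% lower). This comparison shares the vehicle acute libraries with vehicle chronic against acute and the NAC libraries with NAC against vehicle. Nfatc3 differed from vehicle acute by -0.08 (95% interval -0.21 to 0.04, adjusted p = 0.241), not called, where vehicle chronic cells had been lower by 0.69. For Nfatc3 the NAC chronic and vehicle acute libraries did not overlap, and with the compared groups alone its difference was called (adjusted p = 0.04899). With library medians set equal, a shift of 0.15, Nfatc3 was lower by 0.23 with an adjusted p of 0.00385. Nfatc2 differed by -1.59 (SE 0.06, adjusted p = 2.55e-15), Nfat5 by 1.66 (SE 0.17, adjusted p = 3.54e-08) and Nfatc1 by 0.49 (SE 0.05, adjusted p = 1.06e-08). Ppp3ca differed by -0.63 (SE 0.06, adjusted p = 6.41e-09) and Ppp3cb by -0.15 (SE 0.04, adjusted p = 0.00384). Nfatc1 made up 34.1 ± 0.209%, Nfatc2 7.66 ± 0.175% and Nfatc3 58.2 ± 0.264% of cytoplasmic NFAT RNA in NAC chronic libraries. The summed level was 112 ± 1.98 RPKM, between those of vehicle chronic and vehicle acute.

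A list of 36 genes around the members covered calcium entry and release, calmodulins, other calcineurin subunits and regulators, and the kinases that export NFAT, of which 32 were tested. It was written with earlier results of these data known. In the vehicle experiment 11 rose and 14 fell, with a median change of -0.09 against -0.03 over all genes, of which 24.5% were called higher and 34.4% lower. In the polyclonal experiment 12 rose and 14 fell (median -0.12 against -0.08, with 28.6% and 35.5% of all genes called). In the OT-I experiment 8 rose and 14 fell (median -0.11 against -0.12, with 22.4% and 36.2% of all genes called). Itpr1, an inositol trisphosphate receptor that releases stored calcium, rose in each: 8.46 ± 0.744 RPKM in vehicle acute against 39.5 ± 1.49 in vehicle chronic (SD, n = 3), a log2 change of 2.102, with 1.35 in the polyclonal and 0.63 in the OT-I experiment. Orai1, the pore subunit of the calcium release-activated channel, rose from 13.1 ± 0.877 to 48.3 ± 1.12 RPKM in vehicle cells (log2 change 1.81) and by 1.996 in polyclonal and 0.35 in OT-I cells. Orai2, a channel subunit that lowers the current of Orai1 channels, fell by 0.69, 1.19 and 0.99 in vehicle, polyclonal and OT-I cells. Plcg1, the phospholipase that makes inositol trisphosphate, fell by 0.55, 1.17 and 0.65. Of the pumps that refill the stores, Atp2a2 rose by 0.46, 1.399 and 0.56, and Atp2a3 fell by 0.92, 1.18 and 0.29, in the same order. The adjusted p of these changes ran from 1.02e-14 to 0.001101.

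With NAC, 11 of the 32 rose and 10 fell against vehicle chronic cells (median 0.05 against 0.08 over all genes, of which 38.5% were called higher and 22.6% lower). Itpr1 fell by 1.198, to 16.7 ± 0.922 RPKM. Plcg1 rose by 1.66 and Stim2, a calcium sensor of the stores, by 1.01. Ppp3cc rose by 0.46 and Ppp3r1 fell by 0.26. Against vehicle acute cells, from which NAC chronic cells differ in repeated stimulation too, 10 rose and 10 fell. In that comparison 36.3% of all genes were called higher and 29.9% lower. Among the 10 that rose were Orai1 (1.46) and Plcg1 (1.11).

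A second list held 31 textbook NFAT targets, of which 28 were tested. It included 5 osmotic targets of Nfat5, 4 of them tested, and Cd40lg, which is also among the CD4 T cell markers above. It was also written with earlier results known, so its direction is no independent evidence. In the vehicle experiment 20 rose and 4 fell (median 1.48 against -0.03 over all genes), in the polyclonal 19 rose and 7 fell (median 0.90 against -0.08) and in the OT-I experiment 17 rose and 6 fell (median 0.56 against -0.12). Over all genes, 24.5%, 28.6% and 22.4% were called higher and 34.4%, 35.5% and 36.2% lower in the same order. Of 9 tested targets of NFAT with AP-1, 6 rose and 2 fell in vehicle, 8 rose and 1 fell in polyclonal, and 8 rose and 0 fell in OT-I cells. Of 15 tested targets of NFAT without AP-1, 11 rose and 1 fell in vehicle, 8 rose and 5 fell in polyclonal, and 8 rose and 5 fell in OT-I cells. Ifng, the gene of interferon-γ, rose from 4.67 ± 0.538 to 430.5 ± 9.195 RPKM in vehicle cells, a log2 change of 6.25, and by 3.83 in polyclonal and 6.34 in OT-I cells. Il13, a type 2 cytokine gene, rose by 5.47, 7.89 and 3.77 in vehicle, polyclonal and OT-I cells. Lag3, an inhibitory receptor gene, rose by 5.15, 1.58 and 1.37, in the same order. The type 2 cytokine gene Il4 rose by 5.69 in polyclonal cells, whose chronic libraries were high in Cd4, and was not called in vehicle (0.32) or OT-I cells (-0.33). Il3, a growth factor of myeloid cells, was at 0.581 ± 0.505 RPKM in polyclonal acute and 54.4 ± 4.48 in polyclonal chronic libraries, and rose by 2.85 in OT-I cells. Rcan1, an NFAT target as well as a member, was not called in any of the 3 experiments.

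With NAC, targets moved both ways. Against vehicle chronic cells 10 rose and 13 fell (median -0.15 against 0.08 over all genes), where 38.5% of all genes were called higher and 22.6% lower. Of the 9 with AP-1, 2 rose and 6 fell, and of the 15 without, 6 rose and 6 fell. Il13 fell by 5.296, and Il3 was at 0.918 ± 0.0689 RPKM against 31.95 ± 0.348. Tox, which encodes a factor needed for exhausted cells, rose by 3.4996, from 0.783 ± 0.2196 to 19.1 ± 0.348 RPKM. NAC chronic cells differ from vehicle acute cells in both repeated stimulation and NAC. Against vehicle acute cells 14 of the 15 targets without AP-1 were higher in NAC chronic cells and 1 lower. In that comparison 36.3% of all genes were called higher and 29.9% lower, and the list was written with earlier results known. The median change of these 15 targets was 3.29 there. It was 2.96 for vehicle chronic against acute cells and 0.04 for NAC against vehicle chronic cells. From vehicle acute to NAC chronic cells, Nr4a1 (5.67), Nr4a3 (5.06) and Egr2 (4.89), transcription factors that TCR signals induce, were highest among them by log2 difference. Of 4 tested osmotic targets of Nfat5, 3 rose and 1 fell in vehicle cells and in polyclonal cells, and 1 rose and 1 fell in OT-I cells. With NAC against vehicle chronic cells 2 rose and 1 fell. The shares of all genes called in these comparisons are those given above. Slc5a3, an inositol transporter gene among the osmotic targets, rose by 1.36 in vehicle and 1.05 in polyclonal cells, and its OT-I value was 0.21 (adjusted p = 0.163).

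**Figure D5:**
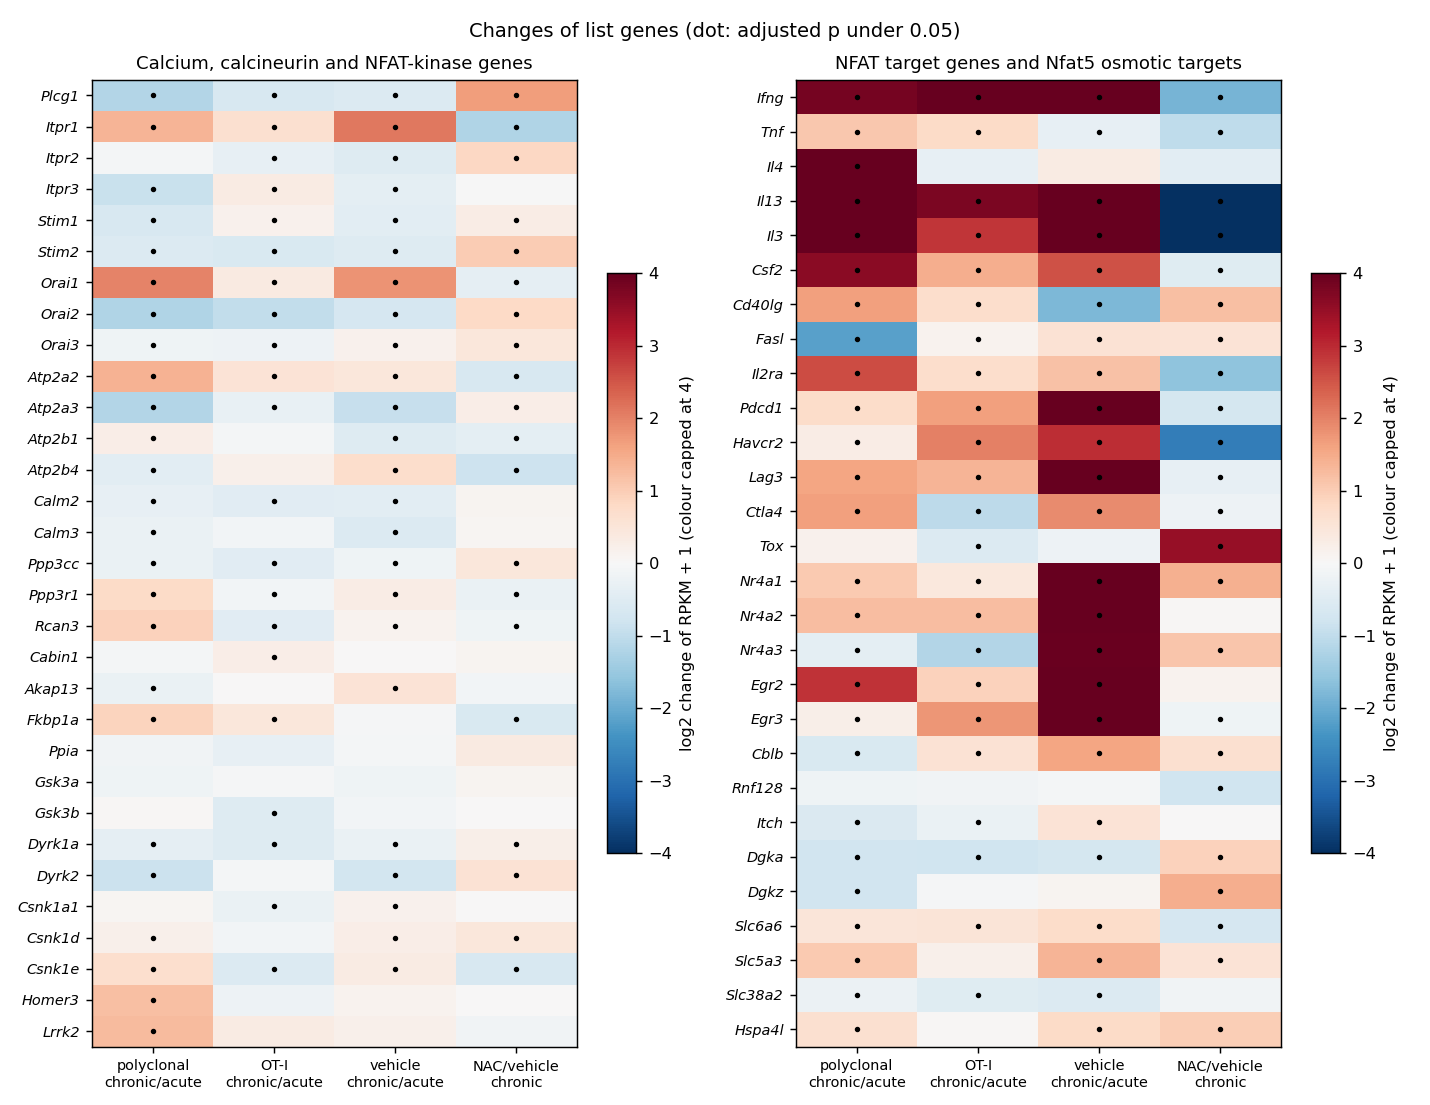
Log2 change of RPKM + 1 of tested pathway genes (left) and the 28 tested NFAT target genes, osmotic targets of Nfat5 among them (right), in 4 comparisons, as colours capped at 4, with a dot for adjusted p under 0.05. Itpr1, Il13 and Il3 are red in the 3 chronic against acute columns and blue under NAC.

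The genes whose pattern was most like that of a member were taken by Pearson's r over the 21 libraries, among 8724 genes with a mean RPKM of 5 or more. The libraries share experiments whose levels differ, so r is a description only. Nfatc3 and Ppp3cb were each other's closest gene of all compared (r = 0.980). For Nfatc3 the next were Dock11 (0.972) and Cenpf (0.966), and for Ppp3cb Cenpf (0.977) and Gucd1 (0.972). Nfatc1 was closest to Ptpn7 (0.987), Nckap1l (0.982) and Sc5d (0.969). Nfatc2 was closest to Tmem154 (0.962), Acp5 (0.941) and Aqp9 (0.926). Rcan1 was closest to Atp6v0d1 (0.973), Vps26a (0.956) and Zfp637 (0.955). Ppp3ca was closest to H2afy (0.971), Ube2d1 (0.970) and Osbpl5 (0.947). Nfat5 was closest to Rbm26 (0.949) and Zfp275 (0.912).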

How the data were processed

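The labels' protocols name Trizol for RNA extraction, poly(A) RNA and NEBNext Ultra libraries. The authors deposited RPKM values for 13202 genes in 21 libraries. Per the submitters' processing notes, bcl2fastq 2.17, HTSeq, edgeR and the build mm9 were named. No source used here names the aligner, annotation or strand setting. All 21 columns were matched to samples by title.

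Whole reads were recovered from the RPKM steps for 100% of genes within 0.001 reads, which gave the depths and showed that each divisor was the sum of listed reads. No libraries of a group agreed within sampling noise (chi-square per gene 1.52 to 54.6). Values were tested as log2(RPKM + 1) with limma 3.58.1 in R 4.3.3, in 1 fit of 7 group means with an empirical Bayes trend and 14 residual degrees of freedom. The filter asked for RPKM of 1 in 3 or more libraries, which 12630 genes met. The pseudocount of 1 understates changes of low genes. Adjusted p (Benjamini-Hochberg, two-sided, all genes tested) under 0.05 was called. The method was tested on simulated data with 200 genes changed, far fewer than were called here, which does not show how it performs on these data.

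Each result was recomputed with the pseudocount at 0.1, without the filter, with a minimum of RPKM 5, with library medians set equal, with the compared groups alone, with the replicate block, with limma voom on recovered reads, and with each library left out. A fit without 3 libraries with raised low genes was added after the data were seen.

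Same-numbered libraries deviated together in the polyclonal experiment (r of 0.446, 0.629 and 0.168 for libraries 1, 2 and 3). Acute library 1 deviated more like a chronic library of another number, and both libraries numbered 2 had raised low genes. The labels give no pairing, and whether libraries were paired cannot be told from these values. Members and lists were chosen with earlier results of these data known. Named genes were all 7 members, up to 3 genes per list and comparison with the largest called changes without overlap of libraries, and the 3 genes most like each member. Calcineurin subunits, Rcan3 and osmotic targets were named beyond this rule, after their values were seen, and some genes the rule takes are not reported here. Coordinates are those of GRCm38.p6 promoters, while the table's build is mm9. Promoters of Nfatc1 and Ppp3ca are not reported here.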

Additional observations from a re-analysis of the deposited data

Results flagged for a closer look

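For 12 of the 21 member changes compared between experiments, the chronic effects differed by a test of the difference itself (limma, adjusted p under 0.05, log2 scale). Over all genes 55.8% (OT-I and polyclonal), 52.4% (vehicle and polyclonal) and 58.5% (OT-I and vehicle) were called, so the count is near the background and is no result about the members. Between OT-I and polyclonal cells these were Nfatc1 (0.44), Nfatc3 (0.704), Ppp3ca (0.99) and Ppp3cb (0.31). Between vehicle and polyclonal cells they were Nfatc1 (0.17), Nfatc2 (-0.98), Nfatc3 (0.52), Ppp3ca (0.92) and Ppp3cb (0.19). Between OT-I and vehicle cells they were Nfatc1 (0.26), Nfatc2 (0.98) and Nfat5 (-0.68). The Nfatc1 difference between vehicle and polyclonal cells had an adjusted p of 0.0333, and it was lost without polyclonal acute library 1 or 3, polyclonal chronic library 1 or 3, vehicle acute library 2, or vehicle chronic library 1, 2 or 3 (0.15 to 0.18). In the experiments' libraries the CD4, B cell and melanocyte markers differed too, and their part in these differences was not tested.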

How the results depend on the processing

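The 56 member changes were recomputed 889 times, and 63 values changed sign or their side of the threshold. A pseudocount of 0.1, no filter and a filter of RPKM 5 changed 0 calls. The replicate block changed 0 of 56 calls: with the block, Nfat5 in polyclonal cells was at 0.95 (adjusted p = 7.64e-05). With library medians set equal, 3 members were called for NAC against vehicle, 3 for the vehicle minus polyclonal effect and 5 for the OT-I minus vehicle effect, against 5, 5 and 3. With each library left out in turn, 5 members were called in the polyclonal, 5 or 6 in the OT-I and 5 or 6 in the vehicle experiment, and 4 or 5 for NAC against vehicle. Values near 0 that were not called changed sign when a library was left out: -0.00377 to 0.19 for Rcan1 in vehicle cells, -0.00749 to 0.0287 for Ppp3ca under NAC and -0.11 to 0.0903 for Rcan1 in NAC chronic against vehicle acute cells. Differences between experiments that did so were -0.05301 to 0.0541 for Nfatc2 (OT-I minus polyclonal), -0.16 to 0.0728 for Rcan1 (vehicle minus polyclonal) and -0.00039004 to 0.12 for Ppp3ca (OT-I minus vehicle). With medians set equal, Ppp3ca under NAC was at -0.15 and the Nfatc2 difference between OT-I and polyclonal cells at 0.0389. Without the 3 libraries with raised low genes, the latter was at 0.0789 and the Ppp3ca difference between OT-I and vehicle cells at -0.00039004. The cause of these changes was not tested. Depth limits Rcan1 most, at 51 to 556 reads a library.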
